A study of Mus musculus with 6 samples.

Results

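The potassium channel genes and the hyperpolarization-activated HCN channel genes were examined in the dentate gyrus (DG) and the CA1 of the adult mouse hippocampus. They were chosen by symbol alone, as every gene whose symbol begins with Kcn together with the genes of the HCN family, leaving out the noncoding RNA Kcnq1ot1. Of the 7507 genes in the table, 46 met this rule. The RNA came from BALI-Multiome, in which cDNA made in place from polyadenylated RNA receives a spatial barcode by light-directed ligation. In each of 3 fresh frozen brain sections of 10 µm, the granular layer of the DG and the CA1 were illuminated in turn, so that each section gave 1 DG library and 1 CA1 library. The 6 libraries are untreated tissue, and the mice are labelled as 12 weeks old in the sample characteristics and as 8 to 12 months old in the growth protocol and in the paper. The sources used here give no strain and do not say how many animals the sections came from, so p-values measure the spread between these sections. Counts are unique molecular identifiers (UMIs), that is, distinct cDNA molecules assigned to a gene.

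Potassium channels let potassium leave the cell and so set the resting potential, end the action potential and pace repeated firing. The voltage-gated (Kv) subunits open on depolarization, inward rectifiers (Kir) pass current near rest, tandem-pore (K2P) channels carry leak current, and the BK and SK channels open on calcium. HCN channels open on hyperpolarization instead and carry a mixed cation current that is well known from the dendrites of CA1 pyramidal cells. Auxiliary proteins, among them the Kv beta subunits and the calcium-binding KChIP proteins, bind the pore-forming subunits and tune them.

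What the pore-forming members have in common, beyond their names, is the stretch that builds the selectivity filter, known from textbooks for its glycine-tyrosine-glycine or glycine-phenylalanine-glycine core. The longest GENCODE M21 coding sequence of each gene was searched in frame, on the coding strand, for the codons of that core, which are GGNTATGGN, GGNTACGGN, GGNTTTGGN and GGNTTCGGN. At least 1 match was found in 41 of 46 members, against 1166 of the 6946 listed genes that had a coding sequence (16.8%), so the letters alone do not mark a channel. Each of the 5 K2P genes held 2 matches, and K2P subunits are known to carry a pair of pore loops. Kcnq3, Kcnh4, Kcnj2 and Kcnj12 also held a further match elsewhere in the coding sequence. The 5 members without a match were Kcnab1, Kcnab2, Kcnip2, Kcnip3 and Kcnip4, which are the auxiliary subunits listed. Shown here are 30 bases of coding exon around the match, 5′ to 3′ on the coding strand of GRCm38 (mm10), for the member with most UMIs, for 3 further members that the counts below turn on, and for Kcnh1, which carries the phenylalanine form. Capitals mark the codons of the core. They lie at chr14:23528404-23528433 (minus strand) for Kcnma1, chr3:107105218-107105247 (plus) for Kcna2, chr16:94832768-94832797 (minus) for Kcnj6, chr6:126642219-126642248 (minus) for Kcna1 and chr1:192337748-192337777 (plus) for Kcnh1.
Kcnma1: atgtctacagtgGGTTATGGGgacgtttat
Kcna2: atgacaactgtaGGCTATGGAgacatggtt
Kcnj6: gaaaccaccatcGGTTATGGCtaccgggtc
Kcna1: atgaccactgtgGGATACGGTgacatgtac
Kcnh1: ctcaccagtgtgGGCTTTGGTaacattgcc

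All libraries were shallow. The DG libraries held between 4572 and 17999 gene-assigned UMIs and the CA1 libraries between 2844 and 9357, and the DG to CA1 ratio of depth was 1.92, 1.61 and 1.29 in sections 1, 2 and 3. A count of 0 allows up to 3 UMIs, which is 166.7 CPM (counts scaled to a common library total) in the deepest library and 1055 CPM in the shallowest. Limits and intervals of this kind cover counting error only. Of the granule cell markers searched, Prox1, C1ql2, Dsp and Plk5 are not among the genes listed, and the other 4 took 10 UMIs in the DG against 3 in the CA1, with Synpr at 6 and 0 and Calb1 at 0 and 2. The 7 CA1 pyramidal cell markers took 8 UMIs in the DG against 14 in the CA1, with Wfs1 and Neurod6 at 0 and 2 and Mpped1 at 1 and 3, but Pou3f1 at 6 and 4 and Fibcd1 at 1 and 0. In section 2 both lists went against the labels, with the granule cell markers at 0.0219% of UMIs in the DG library and 0.0352% in the CA1 library, and the CA1 markers at 0.0437% and 0.0352%, on 1 or 2 UMIs each. The check of the regions against their labels thus rests on few molecules. The 6 oligodendrocyte markers listed took between 0.503% and 0.794% of UMIs in the DG libraries and between 0.668% and 0.994% in the CA1 libraries, the 5 astrocyte markers between 0.272% and 0.372% and between 0.278% and 0.391%, and the 6 interneuron markers between 0.0219% and 0.0635% and between 0% and 0.0822%. The 2 microglial and 2 vascular markers listed took at most 2 UMIs in any library.

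Taken as a group, the channel genes made up 0.699% of all UMIs, and the DG and the CA1 could not be told apart. The 46 genes held 321 of 45935 UMIs. In sections 1, 2 and 3 they took 125, 29 and 50 UMIs in the DG, which are 0.694%, 0.634% and 0.794% of the library, and 60, 13 and 44 UMIs in the CA1, which are 0.641%, 0.457% and 0.904%. The exact 95% binomial intervals of the libraries of each section overlapped, and the CA1 libraries held both the lowest and the highest share. Over the 3 sections (n = 3) the mean share was 0.708% with an SD of 0.0806 for DG libraries and 0.668% with an SD of 0.225 for CA1 libraries. Within sections the log2 ratio of DG over CA1 was 0.12, 0.47 and -0.19, a mean of 0.13 with an SD of 0.33, so the difference was smaller than the spread between sections. Without section 2 the mean was -0.04. With the libraries of a region summed, the DG to CA1 ratio of shares was 1.03, with an exact 95% interval from 0.817 to 1.31. In bulk tissue of this kind, fewer cells of a type and less RNA per cell cannot be told apart.

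**Figure D1:**
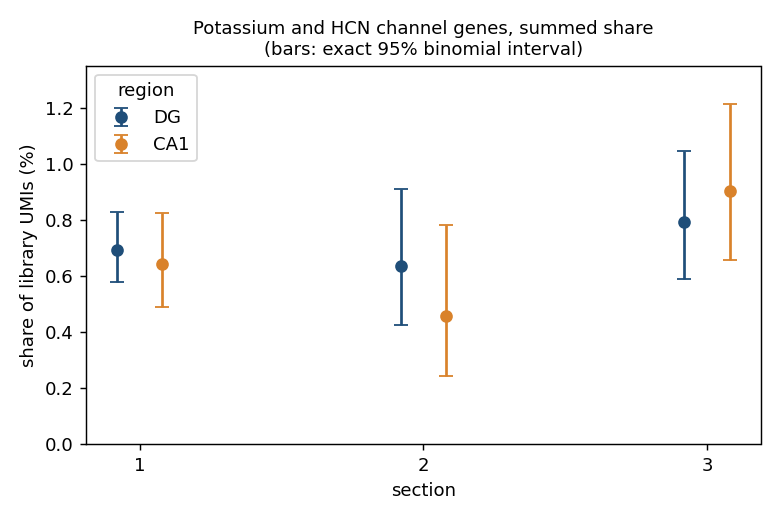
Share of library UMIs (%) taken by the 46 potassium and HCN channel genes, by section, for the DG and the CA1, with exact 95% binomial intervals. The DG point is above the CA1 point in sections 1 and 2 and below it in section 3, where the shares are 0.794% and 0.904%, and the intervals overlap in every section.

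The molecules were concentrated in a few genes, as they were over all genes listed. The 3 genes with most UMIs held 34.0% of the UMIs of the group, the first 6 held 52.3%, and the 9 genes with at least 10 UMIs held 66.4%. A further 20 genes had between 2 and 9 UMIs and 17 had a single UMI. The median was 3 UMIs per gene, the same as over all genes listed. A UMI was found in all 6 libraries for 5 of 46 genes (10.9%, against 5.25% of all genes listed), among them Kcnma1, Kcna2 and Kcna1. UMIs were found in both regions for 26 genes, in the DG only for 17 and in the CA1 only for 3. The DG libraries held 62.8% of all UMIs, and a gene with a single UMI can be found in 1 region only. UMIs lay in a single library for 37.0% of the channel genes, against 40.4% of all genes listed. The split by region was not counted over all genes. No gene found in the DG only had more than 5 UMIs and none found in the CA1 only had more than 1, so that none of these 20 genes is shown to be restricted to a region.

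**Figure D2:**
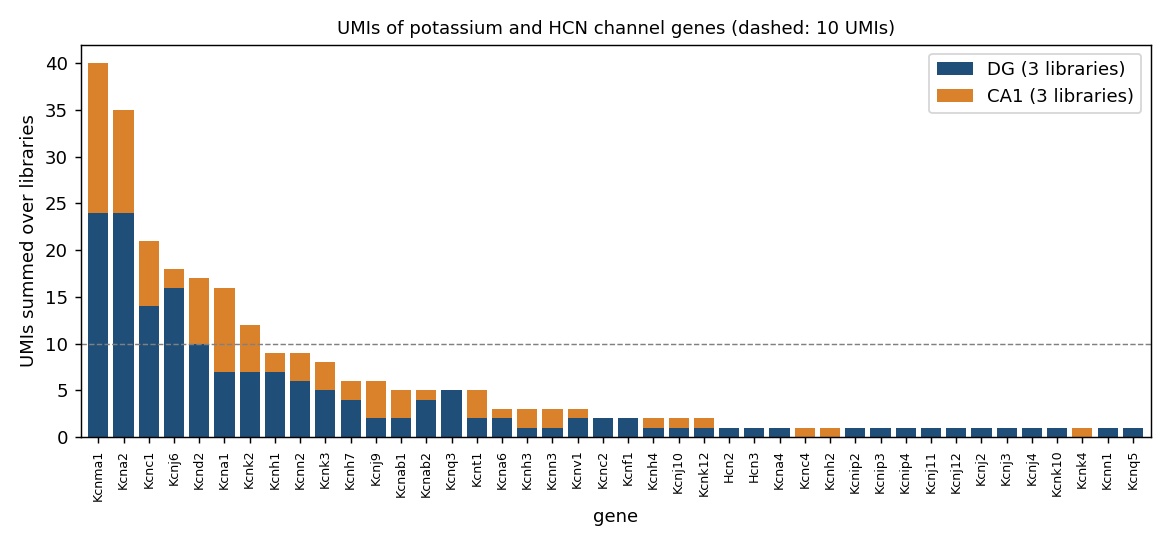
UMIs of 42 channel genes, summed over the 3 DG libraries (dark) and the 3 CA1 libraries (light), in order of the total, with a dashed line at 10 UMIs. From Kcnma1 at 40 UMIs the totals run down to 17 genes with 1 UMI, and 7 genes lie above the line.

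Counts were also divided by the length of exon, from the curated RefSeq transcripts of GRCm38.p6, in which all 46 symbols were found. A UMI stands for 1 cDNA molecule primed at the poly-A tail, whatever the length of the transcript. Values per kb therefore lower the place of long transcripts and do not rank the genes by abundance. The exon lengths ran from 1.76 to 11.8 kb. Per kb, Kcnma1 was first with 5.11 UMIs over the 6 libraries, while Kcnd2 was at 3.20, Kcna2 at 3.02 and Kcnk2 at 2.91. Kcna1, with a transcript of 8.97 kb, was at 1.78 UMIs per kb, below 10 other members. The median channel gene had 0.548 UMIs per kb, against 0.769 over the 7187 listed genes found in the annotation, and longer exons (a median of 4.82 kb against 3.62 kb). Before division by length, the median was 3 UMIs per gene both for the channel genes and for all genes listed. Exons of another gene overlap those of Kcnk2, Kcnn2, Kcnk3, Kcnh3 and Kcnip4. Counting ignored the strand, so UMIs from the shared stretches are less certain. The overlap is 10.2% of the exons for Kcnn2, 6.01% for Kcnk3 and 3.54% for Kcnip4, but only 1 base for Kcnh3. For Kcnk2 the overlap is 405 bases, 9.82% of its exons, with the antisense gene A430027H14Rik. The 46 genes lie on 18 chromosomes, and within 200 kb of each other are only Kcnj9 and Kcnj10 on chromosome 1 (11.9 kb apart) and Kcna1 and Kcna6 on chromosome 6 (62.5 kb apart). Kcnj10, the main inward rectifier of astrocytes, had 1 UMI in each region, and its neighbour Kcnj9, a neuronal GIRK subunit, had 2 in the DG against 4 in the CA1.

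The paper asked whether BALI could profile RNA and chromatin together, and compared the regions by ratios of averaged normalized counts. Here, the DG and the CA1 were compared in a fit of all genes with at least 10 UMIs over the 6 libraries. The fit held 999 genes, 9 of them channel genes. Kcnma1 and Kcna2 reached 10 UMIs in each region alone, Kcnj6, Kcnc1 and Kcnd2 in the DG alone, and Kcna1 and Kcnk2 only when both regions were summed. By edgeR's quasi-likelihood test none of the 9 had an adjusted p under 0.05, as none of the 999 genes had (0%). At an unadjusted p under 0.05 there was 1 of the 9, Kcnj6, beside 52 of the 999 (5.21%), and DESeq2 had 0 of the 9 and 9 of the 999. The median log2 fold change, DG over CA1, was -0.02 over the 9 channel genes and 0.08 over all 999, and 4 of the 9 were above 0, beside 54.5% of all genes tested. Adjusted p-values of the 9 lay between 0.880 and 1.000. With 3 libraries against 3 an exact permutation test cannot give a p below 0.1, so it was not used for single genes.

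Kcnj6 encodes GIRK2, a subunit of the G protein-gated inward rectifiers through which transmitters such as GABA, adenosine and serotonin hold neurons near rest. Sections 1, 2 and 3 gave 11, 2 and 3 UMIs in the DG against 1, 0 and 1 in the CA1. The share of UMIs was thus 0.0611%, 0.0437% and 0.0476% in the DG against 0.0107%, 0% and 0.0206% in the CA1. Each DG library was above each CA1 library, and the DG was higher in 3 of 3 sections. A gap of this kind with the DG higher was found for 71 of the 999 genes (7.11%), so 1 of 9 channel genes is near the background. The log2 fold change was 2.11 with a standard error of 1.02 (edgeR, unadjusted p = 0.0385, adjusted p = 0.880), and 4.50% of the 999 genes had a fold change at least as high. With the libraries summed, the DG to CA1 ratio of shares was 4.73 with an exact 95% interval from 1.11 to 42.4, which rests on 2 UMIs in the CA1. By DESeq2 the log2 fold change was 2.19 with an unadjusted p of 0.151 (adjusted p = 1.000), and over the 13 alternatives in which the gene could be tested the adjusted p from edgeR and DESeq2 lay between 0.663 and 1.000. Of the 18 UMIs, 11 lay in a single library, the DG of section 1, which was the deepest, and without it or without section 1 the gene no longer reached 10 UMIs and was not tested. The DG library was also the deeper one in 3 of 3 sections, and the part of depth in this result was not tested. The gene lies on chromosome 16 (mm10, 94744980 to 94997696, minus strand).

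Kcna1 showed the opposite order. It encodes Kv1.1, a low-threshold subunit of axons and terminals. It had 4, 1 and 2 UMIs in the DG against 5, 2 and 2 in the CA1, in libraries that were deeper for the DG. The share was 0.0222%, 0.0219% and 0.0318% in the DG against 0.0534%, 0.0703% and 0.0411% in the CA1. Each CA1 library was above each DG library, as for 51 of the 999 genes (5.11%). The log2 fold change was -1.0045 with a standard error of 0.86 (edgeR, adjusted p = 1.000), and the ratio of the summed shares, 0.460, had an exact 95% interval from 0.146 to 1.39. The CA1 was higher in 3 of 3 sections, as it was for 11.8% of the genes tested, while the DG was higher in 3 of 3 for 13.8%, of which Kcnj6 was the only channel gene. The summed shares of the astrocyte and of the oligodendrocyte markers were likewise higher in the CA1 in 3 of 3 sections, and their part in this result was not tested. Without section 2, where the markers went against the labels, the fitted log2 fold changes were 1.90 for Kcnj6 and -0.94 for Kcna1. Kcna1 lies on chromosome 6 (126636463 to 126645801, minus strand).

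Kcna2 encodes Kv1.2, which assembles with Kv1.1, and its order differed between the sections. The DG libraries held 16, 3 and 5 UMIs and the CA1 libraries 3, 3 and 5. In shares these are 0.0889%, 0.0656% and 0.0794% in the DG against 0.0321%, 0.105% and 0.103% in the CA1. The DG was higher in section 1 and the CA1 in sections 2 and 3, and the DG values lay inside the range of the CA1 values. The log2 fold change was 0.32 with a standard error of 0.63 (edgeR, adjusted p = 1.000), without section 1 it was -0.36, and without the CA1 library of section 1 it was -0.18. The other Kv1 genes were Kcna6 with 3 UMIs, of which 2 were in the DG, and Kcna4 with 1 in the DG. All 4 Kv1 genes together took 34 UMIs in the DG against 21 in the CA1, a ratio of shares of 0.957 (exact 95% interval 0.540 to 1.74).

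**Figure D3:**
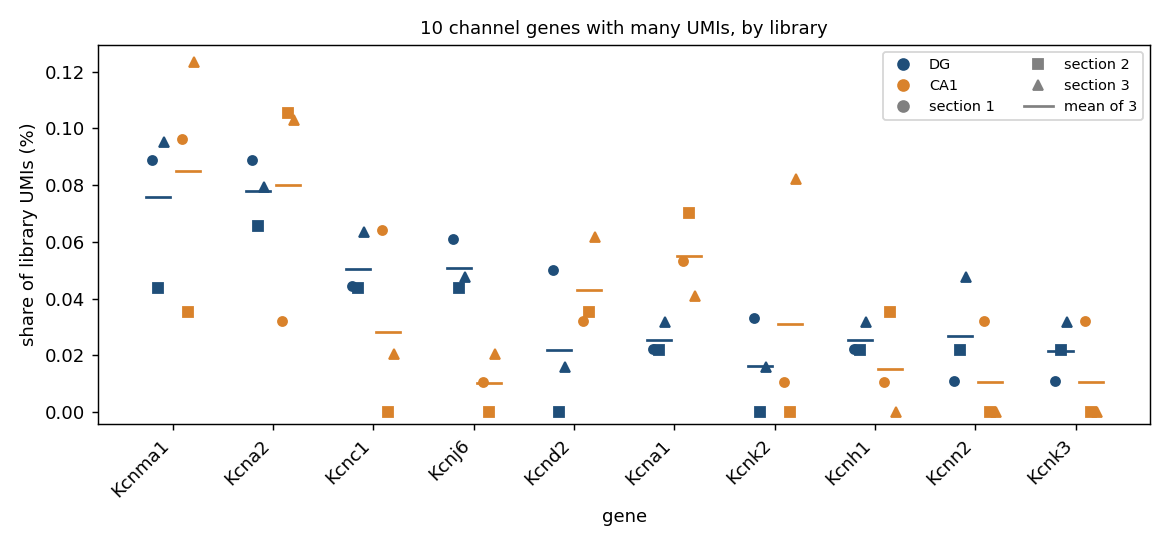
Share of library UMIs (%) of 10 channel genes with many UMIs, with 1 point per library (circle, square and triangle for sections 1, 2 and 3) and a line at the mean of 3 libraries, DG dark and CA1 light. Of these genes, only for Kcnj6, from 0.0437% to 0.0611% in the DG, and for Kcna1, from 0.0411% to 0.0703% in the CA1, do the regions not overlap.

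The Kv3 genes, known for fast repolarization in rapidly firing neurons, were represented by Kcnc1 (Kv3.1), which had 8, 2 and 4 UMIs in the DG against 6, 0 and 1 in the CA1. Its DG shares, between 0.0437% and 0.0635%, lay inside the CA1 range from 0% to 0.0641%. For Kcnc1 the log2 fold change was 0.37 with a standard error of 0.80 (edgeR, adjusted p = 1.000). Kcnc2 had 2 UMIs, both in the DG, and Kcnc4 had 1 in the CA1. Kcnv1 and Kcnf1, which encode silent subunits that form channels only together with other Kv subunits, had 3 and 2 UMIs.

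The A-type channel gene Kcnd2 (Kv4.2), which limits back-propagating action potentials in dendrites, was listed without another Kv4 gene. It had 9, 0 and 1 UMIs in the DG against 3, 1 and 3 in the CA1. The DG library of section 1 was above the CA1 library of its section, while in sections 2 and 3 the order was the other way. The log2 fold change was -0.29 with a standard error of 0.86 (edgeR, adjusted p = 1.000). The KChIP genes Kcnip2, Kcnip3 and Kcnip4, which encode its calcium-binding partners, had 1 UMI each, all in the DG library of section 1, and for the CA1, at 0 UMIs, the limit is a share of 0.0176% (3 UMIs over the 3 libraries). The Kv beta genes Kcnab1 and Kcnab2 had 5 UMIs each, 2 and 4 of them in the DG.

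The calcium-activated channels were led by Kcnma1, the pore-forming BK subunit that joins voltage and calcium signals in spike repolarization. With 16, 2 and 6 UMIs in the DG against 9, 1 and 6 in the CA1 it had the most UMIs of any channel gene in the CA1 and, tied with Kcna2, in the DG. The shares were 0.0889%, 0.0437% and 0.0953% in the DG against 0.0962%, 0.0352% and 0.123% in the CA1, and in both regions section 2 was lowest. The log2 fold change was -0.13 with a standard error of 0.57 (edgeR, adjusted p = 1.000), and the ratio of the summed shares was 0.887 (exact 95% interval 0.452 to 1.79). Kcnma1 lies on chromosome 14 (23292288 to 24005110, minus strand). The sodium-activated channel gene Kcnt1 had 2 UMIs in the DG against 3 in the CA1. Of the SK genes, which carry the afterhyperpolarization, Kcnn2 had 2, 1 and 3 UMIs in the DG against 3, 0 and 0 in the CA1, Kcnn3 had 3 UMIs in all, and Kcnn1 had 1 in the DG.

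Inward rectifiers had the highest ratio among the subfamilies with at least 10 UMIs. The 8 Kir genes took 24 UMIs in the DG against 7 in the CA1, a ratio of shares of 2.03 with an exact 95% interval from 0.847 to 5.57 that includes 1. Kcnj6 supplied 16 of the 24 in the DG and 2 of the 7 in the CA1, so the high ratio rests on this gene. Kcnj9 went the other way, with 2 UMIs in the DG against 4 in the CA1. The GIRK genes listed, Kcnj3, Kcnj6 and Kcnj9, took 12, 3 and 4 UMIs in the DG against 4, 0 and 2 in the CA1. Kcnj2, Kcnj4, Kcnj11 and Kcnj12 had 1 UMI each, all in the DG. Without Kcnj6, the ratio over all remaining channel genes was 0.966 (exact 95% interval 0.762 to 1.23).

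**Figure D4:**
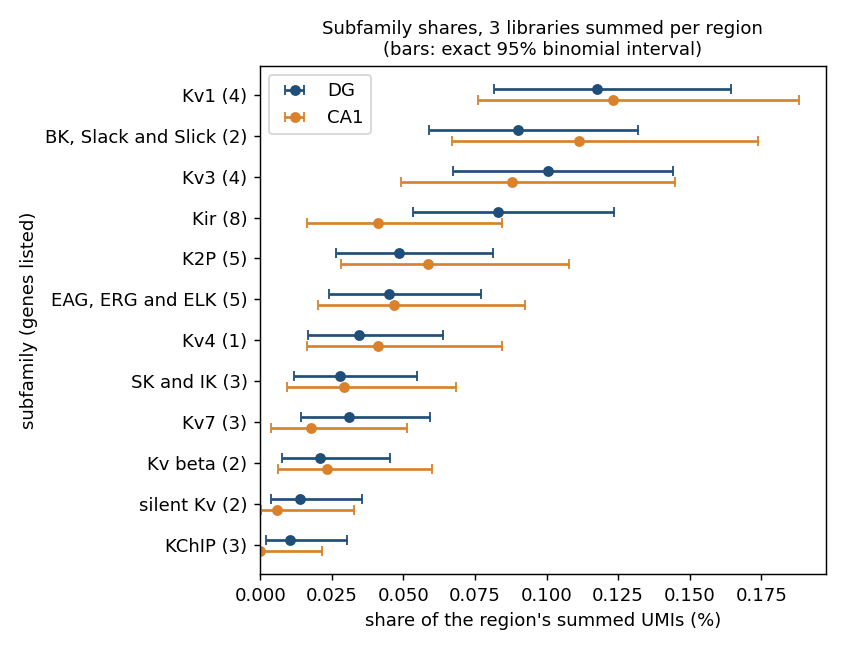
Share of the region's UMIs (%) taken by 12 subfamilies, with the 3 libraries of a region summed and exact 95% binomial intervals, DG dark and CA1 light, and the number of genes listed in parentheses. The intervals of the 2 regions overlap in all 12 subfamilies shown, and the points lie furthest apart for Kir, with 24 UMIs in the DG against 7 in the CA1.

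The leak channels of the K2P group took 14 UMIs in the DG against 10 in the CA1 (ratio of shares 0.828, exact 95% interval 0.342 to 2.08). Kcnk2 (TREK-1), which responds to stretch and lipids, had 6, 0 and 1 UMIs in the DG against 1, 0 and 4 in the CA1. Its shares reached 0.0333% in the DG of section 1 and 0.0822% in the CA1 of section 3, and both libraries of section 2 were at 0, so the order of the regions turned between sections 1 and 3 (log2 fold change -0.32, standard error 1.04, edgeR, adjusted p = 1.000). Kcnk3 (TASK-1) had 2, 1 and 2 UMIs in the DG against 3, 0 and 0 in the CA1. Kcnk12, Kcnk10 and Kcnk4 had 2, 1 and 1 UMIs.

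Of the Kv7 genes, which carry the M current that restrains repetitive firing, Kcnq5 had 1 UMI in the DG, and Kcnq3 had 1, 0 and 4 UMIs in the DG and 0 in each CA1 library. For Kcnq3, the member with most UMIs among those seen in a single region, 5 UMIs are 0.0173% of the DG total, and the CA1, at 0 UMIs, can hold up to 0.0176%, so at this depth no difference could be detected. The ether-à-go-go group took 13 UMIs in the DG against 8 in the CA1. Kcnh1 (EAG1) had 4, 1 and 2 UMIs in the DG against 1, 1 and 0 in the CA1, Kcnh7 had 4 and 2 in all, Kcnh3 had 1 and 2, Kcnh4 had 1 in each region, and the ERG gene Kcnh2 had 1 in the CA1.

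HCN channels were barely sampled. Hcn2 and Hcn3 had 1 UMI each, both in the DG, so that for these genes a difference between the regions lay beyond the reach of these libraries. Neither Hcn4 nor a gene of the KCNE family is among the genes listed.

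**Figure D5:**
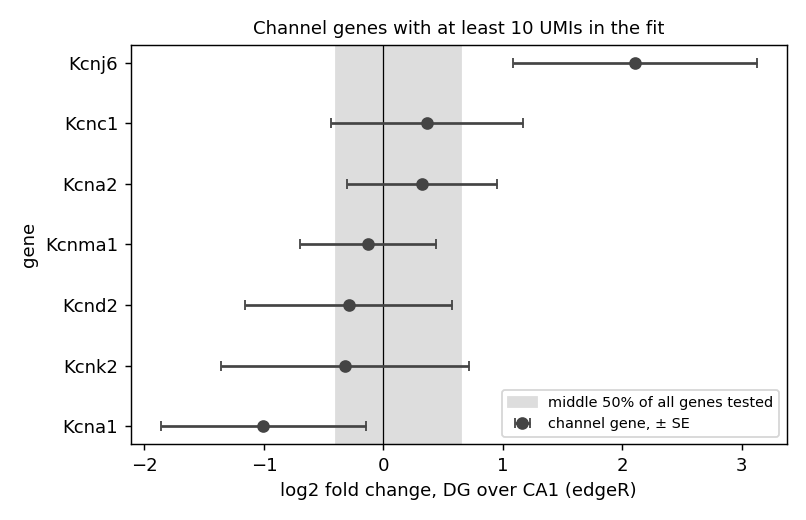
Log2 fold change, DG over CA1, from the edgeR fit of 999 genes for 7 channel genes with at least 10 UMIs, with standard errors (bars), and the middle 50% of all genes tested (grey band, from -0.40 to 0.65). Kcnj6 at 2.11 and Kcna1 at -1.0045 lie outside the band, and the other 5 lie within it.

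Proteins that bind, cluster or gate these channels were looked at through a list of 26 partner genes, of which 22 were among the genes listed and 6 had at least 10 UMIs. None of the 6 had an adjusted p under 0.05. Calm2 and Calm3, which encode the calmodulin that is built into SK and Kv7 channels, had log2 fold changes of 0.44 and 0.31, with standard errors of 0.54 and 0.70. Ank3 encodes the ankyrin that anchors Kv7 channels at the axon initial segment. It had 52, 15 and 22 UMIs in the DG against 14, 11 and 15 in the CA1. By share the DG was higher in sections 1 and 3. In section 2 the CA1 was higher, at 0.387% against 0.328% in the DG. For Ank3 the log2 fold change was 0.41 (standard error 0.34). Nedd4l, a ubiquitin ligase, was at 0.47 (standard error 0.67). Pex5l, which encodes the HCN partner TRIP8b, had 2, 1 and 1 UMIs in the DG against 3, 2 and 1 in the CA1, a log2 fold change of -1.18 with a standard error of 1.09. Its share was higher in the CA1 in 3 of 3 sections, with UMI counts of at most 3 per library. The remaining partner genes had at most 8 UMIs.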

How the data were processed

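The authors extracted 6-base UMIs with umi_tools, split reads by spatial barcode with cutadapt (version 4.1), mapped read 1 to mm10 with STAR (version 2.7.9a), assigned reads with featureCounts (Subread 2.0.3) at its default, which ignores strand, and counted UMIs per gene. The deposited values are UMI counts of 7507 genes with 1 added to each. This 1 and the line of totals were removed. The deposited CPM, means, SDs and fold and log10 ratios were not used, and the 3 chromatin accessibility samples were not analysed here. Shares are UMIs over all UMIs of the library. edgeR 4.0.16 (limma 3.58.1, R 4.3.3) was run with TMM and library sizes of all UMIs on genes with at least 10 UMIs in all, and p-values were adjusted by Benjamini-Hochberg and called under 0.05. DESeq2 1.42.0 served as an alternative. Intervals are exact binomial (Clopper-Pearson) ones, for ratios conditional on the sum, from scipy 1.17.1. The fit was first tested on simulated data. The members, subfamilies, partner and marker lists and the filter were chosen with earlier results of these data known. Named, where reported, were the channel genes with at least 10 UMIs, with the UMIs of each library for the 12 with most, the largest fold changes, the leading gene of each subfamily, members with 5 or more UMIs in a single region, and partners with at least 10 UMIs. The rest are given to account for the members. The DG and CA1 libraries were paired by section, since each section supplied both. Across genes, the correlation of their deviations from the region means was 0.174 for section 1, 0.0608 for section 2 and 0.0769 for section 3. The pairing was left out of the main test because the study averages the sections of a region. Coding sequences were read from the RefSeq genome of GRCm38.p6 at GENCODE M21 positions. Single values of a few listed genes are not reported here.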

Additional observations from a re-analysis of the deposited data

How the results depend on the processing

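The summed share of the channel genes moved by less than its SD of 0.33 in every alternative, with mean log2 ratios from -0.04 (without replicate 2) to 0.29 (without replicate 3) over the sections left out, 0.05 on the counts as deposited and 0.04 without Kcnj6, which was chosen after seeing the data. No channel gene was called in any alternative. Under filterByExpr, which left 43 genes, no channel gene remained to be tested. Across all genes the count of calls was 0, but 1 with a minimum of 20 UMIs and 1 with the replicate block, and between 0 and 1 over the libraries and sections left out. The 1 gene was Prkce each time, which is not a channel gene, and the replicate block changed no other call. Without a filter the median log2 fold change of all 7507 genes was 0.46 and that of the 46 channel genes 0.49.

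Of 98 values of 7 tested channel genes under the alternatives, 88 kept their sign. Kcnj6, Kcna1 and Kcnk2 kept it throughout, Kcnj6 between 1.26 on the counts as deposited and 2.59. Without a filter Kcnma1 was at 0.048. Over the libraries and sections left out, the ranges were -0.44 to 0.11 for Kcnma1, -0.36 to 0.72 for Kcna2, -0.48 to 0.18 for Kcnd2 and -0.12 to 1.93 for Kcnc1. The cause was not tested. Depth limited which genes could be tested, since 37 of 46 channel genes had fewer than 10 UMIs.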

Other observations

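The noncoding RNA Kcnq1ot1, transcribed from within the Kcnq1 locus and left out of the channel genes, held more UMIs than any of them. It had 27, 12 and 14 UMIs in the DG against 19, 13 and 20 in the CA1, which are 0.150%, 0.262% and 0.222% of the DG libraries and 0.203%, 0.457% and 0.411% of the CA1 libraries. The CA1 library was higher in 3 of 3 sections, while the ranges of the 2 regions overlapped. The log2 fold change was -0.66 with a standard error of 0.35 (edgeR, unadjusted p = 0.0589, adjusted p = 0.880). Kcnq1 itself is not among the genes listed.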
